A study of Mus musculus with 6 samples.

Results

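The 10 genes described here encode the 5 subunits of the transcription factor NF-κB (Nfkb1, Nfkb2, Rela, Relb and Rel) and 5 proteins that restrain or modify it (Nfkbia, Nfkbie, Nfkbiz, Bcl3 and Tnfaip3). They were taken by name from the 34761 genes of a whole-genome mouse array, on which 13 probes carry one of these names. The arrays were hybridised with RNA from CD71highTer119+ erythroblasts, nucleated red cell precursors sorted by their transferrin receptor and a red cell surface protein, from bone marrow (BM) on day 4 after a single dose of phenylhydrazine (PHZ, 100 mg per kg), an agent that destroys circulating red cells. Male and female C57Bl/6 mice carried the Mx1-Cre transgene, whose promoter answers interferon, with either 1 floxed P38α allele (Mx1-Cre/P38α fl/+, called P38α+/−, labelled P38hetero) or 2 (Mx1-Cre/P38α fl/fl, called P38α−/−, labelled P38ko), 3 mice of each. The study's methods gave all mice 3 injections of 300 µg PolyIC, which switches the transgene on, at 6 to 8 weeks of age, and a rest of 6 weeks. Both genotypes therefore had Cre, PolyIC and PHZ, and the controls had also lost 1 P38α allele. Mx1-Cre acts in many cells of the marrow and beyond it, so the other marrow cells of these mice could carry the deletion as well.

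NF-κB dimers are held in the cytoplasm by IκB proteins, of which Nfkbia encodes IκBα and Nfkbie encodes IκBε. Tumour necrosis factor, interleukin 1 and microbial products activate the IκB kinase complex, which marks IκB for destruction and lets dimers such as p50 (from Nfkb1) with p65 (from Rela) enter the nucleus. A slower route, through the kinase encoded by Map3k14, processes the Nfkb2 product to p52, the partner of RelB. Nfkbiz and Bcl3 encode nuclear IκB proteins that bind p50 or p52 on DNA, and Tnfaip3 encodes A20, an enzyme that edits ubiquitin chains and ends the signal. Several of these genes are themselves switched on by NF-κB, and the pathway is used heavily by myeloid cells and lymphocytes.

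RefSeq start windows (GRCm38.p6, 250 bases before the start) were given for 7 of the 10 genes, all but Nfkb1, Relb and Nfkbiz, and were searched on both strands for the 10-base κB consensus, the DNA sequence that NF-κB dimers bind. A match lay in the windows of 5 of these 7 genes (71.4%), against 2225 of all 27025 genes (8.23%), and the window of Rela and that of Bcl3 held none. The stretches around the matches are shown because several of these genes are known targets of the factor they encode or restrain, each 5′ to 3′ on the gene's strand with the match in capitals. For Nfkb2 and Tnfaip3, which have several start windows, the stretch is from the first listed. In the Nfkb2 and Rel stretches the first run of capitals is a pair of matches that overlap by all but 1 base.
Nfkbia, chr12:55492648-55492696, minus strand: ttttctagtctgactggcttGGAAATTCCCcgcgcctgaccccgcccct
Nfkbie, chr17:45555574-45555623, plus strand: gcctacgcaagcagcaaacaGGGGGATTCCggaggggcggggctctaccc
Nfkb2, chr19:46304678-46304736, plus strand: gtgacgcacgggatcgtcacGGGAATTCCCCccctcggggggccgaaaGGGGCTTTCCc
Rel, chr11:23771031-23771081, minus strand: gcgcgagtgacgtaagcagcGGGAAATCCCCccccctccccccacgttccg
Tnfaip3, chr10:19015411-19015555, minus strand: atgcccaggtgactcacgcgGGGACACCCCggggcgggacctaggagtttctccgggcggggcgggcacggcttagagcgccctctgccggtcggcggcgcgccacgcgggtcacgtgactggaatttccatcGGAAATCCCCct
The match begins 29 bases before the start in Nfkbia and 106 bases before it in Nfkbie. These matches are letters in a window, and no binding was measured.

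Values are the log2 of each probe's background-corrected signal minus the 75th percentile of its array, taken over the 15527 probes that the scanner software marked as well above background on all 6 arrays, here called detected. Genotypes were compared with limma over the 18769 probes detected on all 3 arrays of at least 1 genotype, and a gene was called when its adjusted p was at most 0.05 and its fold at least 2. By this rule 27 of 14143 tested genes were called (0.191%), 63 with arrays of the same replicate number taken as pairs and used as a block. The share of probes detected ran from 36.8 to 53.0% in P38α+/− and from 28.9 to 35.9% in P38α−/−, with the highest value on P38α+/− replicate 1 and the lowest on P38α−/− replicate 1. The median log2 fold change (P38α−/− over P38α+/−) of all tested probes was -0.16, so changes are also given relative to that probe. The deleted gene, Mapk14, was not lower in the arrays labelled P38α−/−: its brighter probe read 0.32, 0.58 and 0.60 in P38α+/− and 0.75, 1.19 and 1.20 in P38α−/− (log2 fold change 0.54, limma adjusted p = 0.187), and its dimmer probe differed by 0.01 (adjusted p = 0.99). Whether either probe lies in the deleted part is not known, so this mRNA checks neither label, and the direction of every difference rests on the labels. P38α−/− replicate 3 was the only array on its slide, and leaving it out is therefore the same as taking the slide as a block.

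None of the 10 genes was called. Of the 8 that could be tested, 4 were lower and 4 higher in P38α−/−, with adjusted p from 0.107 to 0.883. All 3 P38α−/− arrays lay below all 3 P38α+/− arrays for Nfkbiz and Bcl3, as they did for 2776 tested genes (19.6%), and above them for Rela, as for 1054 (7.45%). Without adjustment, 4 of the genes (Nfkbiz, Bcl3, Nfkbie and Nfkb1) were lower at p at most 0.05, where 2140 tested genes (15.1%) were, and 1 (Rela) was higher, where 695 (4.91%) were. Nfkb1, Nfkbie and Nfkbiz passed the filter only because they were detected throughout P38α+/−, which by itself favours a lower value in P38α−/−. Within pairs of the same replicate number, P38α−/− was the lower array all 3 times for Nfkb1, Nfkbie, Nfkbiz and Bcl3, as for 5277 tested genes (37.3%). It was the higher all 3 times for Nfkb2, Rela and Nfkbia, as for 2452 (17.3%). With the pair as a block the limma adjusted p of these genes ran from 0.0707 to 0.293. The median log2 fold change was -0.58 over the 8 tested genes, against -0.14 over all tested genes, and 0.43 over the 5 detected on every array (Rela, Nfkb2, Relb, Nfkbia and Bcl3), against -0.08.

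**Figure D1:**
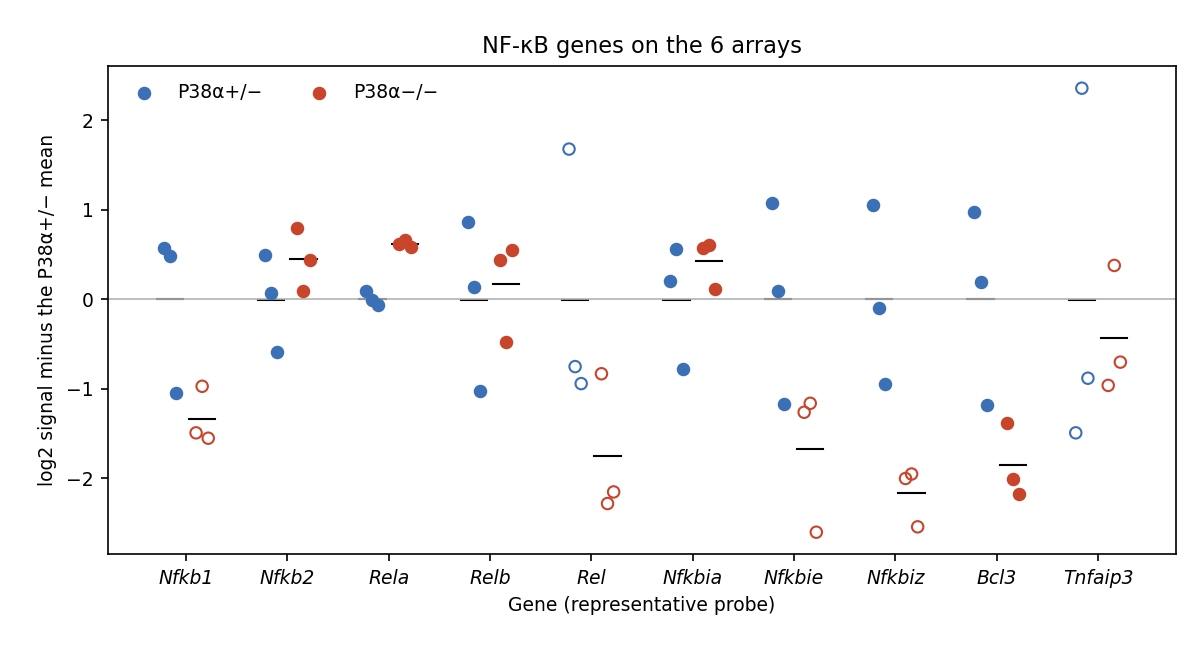
The log2 signal of each NF-κB gene's representative probe on the 3 P38α+/− arrays (blue) and the 3 P38α−/− arrays (red), as a difference from the P38α+/− mean of that gene. Black bars are group means, and open circles mark a genotype in which the probe was not detected on all 3 arrays. The 3 Rela values of P38α−/− lie above those of P38α+/−, and those of Nfkbiz and Bcl3 lie below.

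Among the subunits, Rela, which encodes p65 with its transactivation domain, stood apart by its tight values. Its probe (chr19:5648070-5648129, mm9, plus strand) read 0.82, 0.72 and 0.67 in P38α+/− and 1.35, 1.39 and 1.32 in P38α−/−, and was detected on all 6 arrays. The groups did not overlap, and the gap between them was wider than the spread within either. The means were 0.73 ± 0.08 and 1.35 ± 0.03 (SD, n = 3), a 1.53-fold difference (log2 fold change 0.62, SE 0.14, 95% confidence interval 0.29 to 0.95) with a limma adjusted p of 0.107. Relative to the median probe the difference was 0.78. It stayed between 0.53 and 1.10 under all 18 alternatives, and was under the 2-fold threshold in all of them but the 75th percentile over all probes (adjusted p = 0.0673). With array weights its adjusted p was 0.0472, at a fold under the threshold.

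Nfkb1 encodes p105, the precursor of p50. The representative probe (chr3:135254550-135254609, minus strand) read -3.30, -3.38 and -4.92 in P38α+/− and -5.36, -4.84 and -5.42 in P38α−/−, where 2 of 3 arrays detected it. P38α+/− replicate 3 sat among the P38α−/− arrays, so the groups overlapped. Within pairs of the same number the differences were -2.06, -1.46 and -0.50 (log2 fold change -1.34, SE 0.46, limma adjusted p = 0.185). A second Nfkb1 probe (chr3:135247621-135247680) was detected on no array.

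Nfkb2 encodes p100, the precursor of p52. Its probe (between chr19:46386146 and 46386285) read -2.85, -3.28 and -3.94 in P38α+/− and -2.55, -3.25 and -2.91 in P38α−/−, and was detected throughout. The values interleaved across pairs, the differences within pairs were 0.30, 0.03 and 1.03, and the interval of the difference, -0.33 to 1.24, covered 0 (log2 fold change 0.45, limma adjusted p = 0.465).

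Relb, which encodes the partner of p52, had 3 probes that did not give 1 answer. The brightest (chr7:20191722-20191781, minus strand) read -3.80, -4.52 and -5.68 in P38α+/− and -4.22, -5.14 and -4.11 in P38α−/−, a log2 fold change of 0.17 with an interval of -1.08 to 1.43 (limma adjusted p = 0.883). The probe at chr7:20203058-20203117 gave -0.53 (SE 0.60, adjusted p = 0.664). The remaining probe, which overlaps the brightest and was detected on 3 of 6 arrays, differed by 0.55 in the mean and was not tested. No direction can be given for Relb from these arrays.

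Rel, which encodes c-Rel, a subunit best known from lymphocytes, was detected on P38α+/− replicate 1 alone. The probe, mapped for only part of its length (chr11:23641729-23641743), read -4.97, -7.40 and -7.59 in P38α+/− and -7.48, -8.93 and -8.80 in P38α−/−. The 5 undetected values have no firm order, so no test is given.

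**Figure D2:**
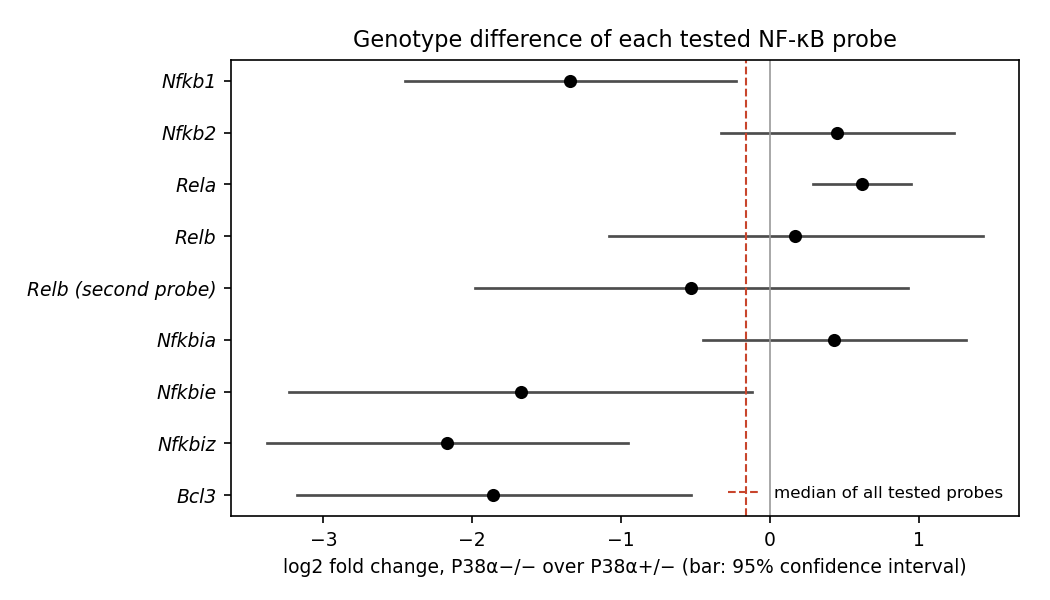
Log2 fold change of P38α−/− over P38α+/− for each tested NF-κB probe, with its 95% confidence interval from limma. The dashed line is the median of all tested probes (-0.16). The interval of Rela lies above 0, those of Nfkb1, Nfkbie, Nfkbiz and Bcl3 lie below 0, and those of Nfkb2, Nfkbia and both Relb probes cover 0, before any adjustment for the number of probes.

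Among the inhibitors, Nfkbia, the IκBα gene, with its κB match close before the start, was detected on all 6 arrays. The probe (between chr12:56590945 and 56591440) read -0.72, -0.37 and -1.71 in P38α+/− and -0.36, -0.32 and -0.81 in P38α−/−. The differences within pairs were 0.36, 0.05 and 0.90. The pair numbered 3 gave most of the difference, and without P38α+/− replicate 3 the difference was 0.04 in place of 0.43 (SE 0.37, interval -0.45 to 1.32, limma adjusted p = 0.538).

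Nfkbie, the IκBε gene, also has a κB match in its window, and its log2 fold change was negative. It read -3.73, -4.72 and -5.98 in P38α+/− and -6.07, -5.97 and -7.41 in P38α−/− (chr17:45700000-45700059), where 1 of 3 arrays detected it. The groups met at P38α+/− replicate 3 and P38α−/− replicate 2, while within pairs the differences were -2.34, -1.26 and -1.43 (log2 fold change -1.67, SE 0.65, limma adjusted p = 0.216).

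Nfkbiz, which encodes the nuclear protein IκBζ, a coactivator of secondary inflammatory genes, was close to background in P38α−/−. Its probe (chr16:55817859-55817918, minus strand) read -2.87, -4.02 and -4.88 in P38α+/− and -5.93, -5.88 and -6.47 in P38α−/−, where 1 of 3 arrays detected it. Every P38α−/− array was dimmer than the dimmest P38α+/− array, replicate 3. The means were -3.93 ± 1.01 and -6.09 ± 0.33 (SD, n = 3), 4.49-fold apart (log2 fold change -2.17, SE 0.50, interval -3.38 to -0.95, limma adjusted p = 0.113). Relative to the median probe the difference was -2.01.

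Bcl3, whose product binds p50 and p52 homodimers and can turn them into activators, was detected on all 6 arrays. It read -2.90, -3.68 and -5.06 in P38α+/− and -5.26, -5.89 and -6.05 in P38α−/− (chr7:20393826-20393885, minus strand). The groups did not overlap, but the gap between P38α+/− replicate 3 and P38α−/− replicate 1 was small beside the spread within P38α+/−. The log2 fold change was -1.86 (SE 0.55, interval -3.18 to -0.53, 3.62-fold, limma adjusted p = 0.153), or -1.70 relative to the median probe. Nfkbiz and Bcl3 passed the threshold when the 75th percentile was taken over all probes (adjusted p = 0.00589 and 0.0334), a scaling that moved the median of all tested probes to 0.32 and called 736 genes. Nfkbiz also passed it with array weights (adjusted p = 0.0424).

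Tnfaip3, the gene of A20, holds matches in its first promoter window and was detected on only 1 array of each genotype. It read -7.76, -3.91 and -7.15 in P38α+/− and -7.23, -5.89 and -6.97 in P38α−/− (chr10:18720776-18720835). Replicate 2 was the brightest of both genotypes, and with 4 of 6 values not above background no direction and no test are given.

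**Figure D3:**
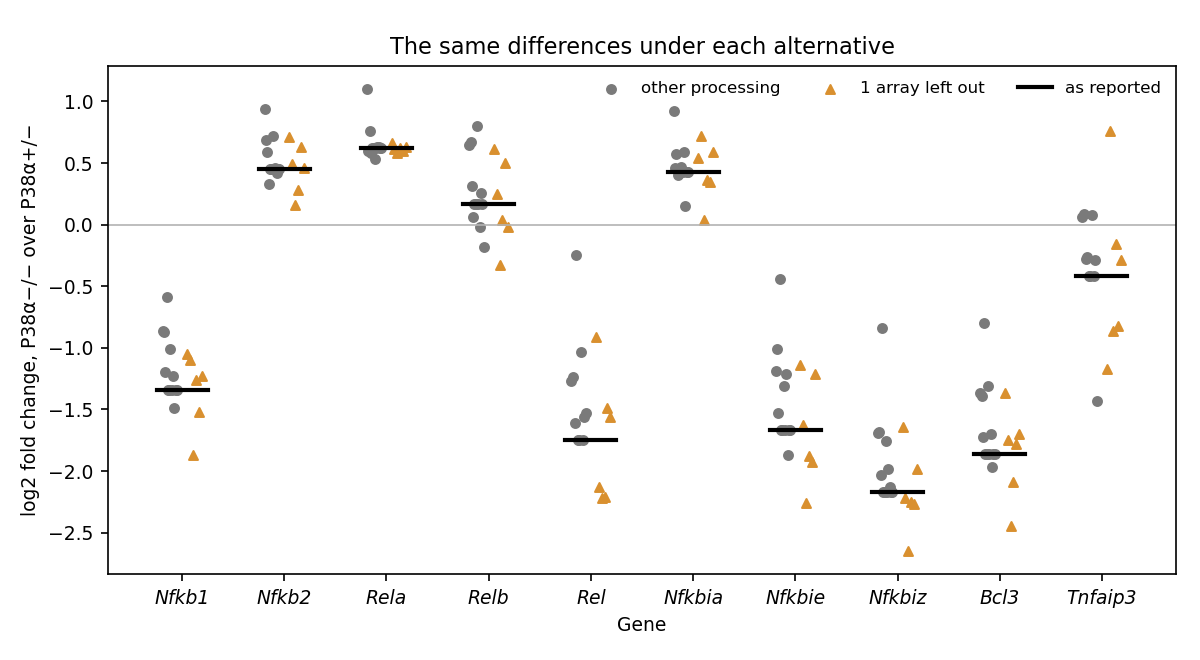
Log2 fold change of each NF-κB gene as reported (black bar), under other processing (grey circles) and with 1 array left out (orange triangles). Every value of Rela, Nfkb2 and Nfkbia is above 0 and every value of Nfkb1, Rel, Nfkbie, Nfkbiz and Bcl3 is below 0, while those of Relb and Tnfaip3 lie on both sides.

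The rest of the pathway was read from 84 further genes listed by role, of which 58 could be tested and none was called. Without adjustment 5 of the 58 were higher and 16 lower, beside 4.91% and 15.1% of all tested genes. Without overlap 7 were higher and 15 lower, beside 7.45% and 19.6%. The median log2 fold change was -0.24, against -0.14 over all tested genes. Leaving out P38α+/− replicate 3, Pdlim2 alone was called. Restricting the test to probes detected on all 6 arrays called Il1r1 and Traf5.

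Of the other IκB genes, Nfkbid, a nuclear relative of Bcl3 and Nfkbiz, read -2.52, -2.10 and -3.91 in P38α+/− and -4.20, -5.17 and -5.18 in P38α−/−. All P38α−/− values lay below the others, as they did for 19.6% of all tested genes (log2 fold change -2.01, SE 0.52, limma adjusted p = 0.133). Nfkbib, the cytoplasmic IκBβ gene, differed by 0.13 (SE 0.23, adjusted p = 0.788) and Nfkbil1, a distant relative, by -0.39 (adjusted p = 0.555).

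The IκB kinase complex itself showed small differences. Its catalytic subunits Chuk and Ikbkb differed by -0.22 (95% interval -0.78 to 0.34) and -0.30 (-0.85 to 0.26), and its scaffold Ikbkg (NEMO) by 0.30 (-0.45 to 1.04), so 2-fold differences in Chuk and Ikbkb lay outside these intervals. Map3k14, the kinase of the p100 route, read -4.96, -4.71 and -6.16 against -7.65, -6.21 and -8.67, with 1 of 3 P38α−/− arrays detecting it (log2 fold change -2.24, limma adjusted p = 0.156). Tab2 and Tab3, adaptors of the kinase TAK1, were dimmer on every P38α−/− array, with log2 fold changes of -0.40 and -0.36 (adjusted p = 0.222 and 0.237). Over the 12 tested kinase genes, 3 were lower and none higher without adjustment, where 15.1% and 4.91% of all tested genes were.

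Among the 17 adaptors and ubiquitin enzymes, Traf5, which couples tumour necrosis factor receptor family members to NF-κB, came closest to the threshold. It read -2.23, -2.29 and -2.03 in P38α+/− and -0.81, -0.57 and -0.25 in P38α−/−. The gap between the groups exceeded the spread within either (log2 fold change 1.64, SE 0.19, 3.12-fold, limma adjusted p = 0.0593). Birc3, a ubiquitin ligase and itself an NF-κB target, was detected on every P38α+/− array and on no P38α−/− array. Set against the lowest detected signal of the arrays, as the floor of an undetected probe, it was at least 2.39-fold lower (limma adjusted p = 0.177).

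Of 9 tested further negative regulators, Pdlim2, which ends p65 activity in the nucleus, was lower on every P38α−/− array (-1.77, -2.13 and -3.86 against -4.20, -4.29 and -4.62, limma adjusted p = 0.156). Otud7b and Tnip2 differed by -1.40 and -1.09 (adjusted p = 0.388 and 0.207) with overlap. Tnip1, which works with A20 and was picked out here after its values were seen, read -0.41, -0.23 and -0.35 in P38α+/− and 0.28, 0.29 and 0.31 in P38α−/−. At the brighter of the 2 tested Tnip1 probes, which these values come from, the log2 fold change was 0.63 (SE 0.14, limma adjusted p = 0.107).

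Upstream, the interleukin 1β gene Il1b read -2.64, -2.17 and -3.17 in P38α+/− and -4.43, -4.46 and -5.82 in P38α−/−. No P38α−/− array reached the dimmest P38α+/− array (log2 fold change -2.24, SE 0.45, limma adjusted p = 0.0967). Tnf, the gene of tumour necrosis factor, was detected on 1 P38α+/− array and on no P38α−/− array, and was not tested. Ltb and Tnfsf13b, ligands of the p100 route, differed by -1.33 and -1.04 (adjusted p = 0.255 and 0.233). Among 6 tested receptors, Ltbr (lymphotoxin β receptor) differed by -2.15 and Tlr2 by -1.40 (adjusted p = 0.201 and 0.203), and Tnfrsf13c, the BAFF receptor, by 1.69 with wide overlap (SE 1.01, adjusted p = 0.383). Il1r1, the interleukin 1 receptor, also picked out after its values were seen, read -4.50, -4.30 and -4.53 against -2.95, -3.32 and -3.36 (log2 fold change 1.23, adjusted p = 0.0683), the opposite sign to its ligand.

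Of 32 known targets of NF-κB, which include 9 of the 10 genes above, 18 could be tested. They went both ways, 11 below the median probe and 7 above it. Without adjustment 6 were lower and 2 higher, beside 15.1% and 4.91% of all tested genes. Nfkbiz, Bcl3, Nfkbie and Nfkb1, counted above already, were among the 6. Of these 6 only Bcl3 was detected on every array, and the rest passed the filter only through P38α+/−. The 2 higher targets, Tnip1 and Ier3, were detected on every array. The median log2 fold change was -0.98, against -0.14 over all tested genes. With 11 of the 18 targets detected on all 6 arrays, that median leans on the filter and gives no direction for the targets. Besides Birc3 and Nfkbiz, the rule for naming genes took the Bcl2a1 probe, whose near-identical gene copies cannot be told apart. By the same floor its mean was at least 2.21-fold lower in P38α−/−, where no array detected it (limma adjusted p = 0.066). Like Map3k14, Birc3, Ltbr, Tlr2 and Tnfsf13b, the Bcl2a1 probe passed the filter only through P38α+/−, which by itself favours a lower value in P38α−/−.

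**Figure D4:**
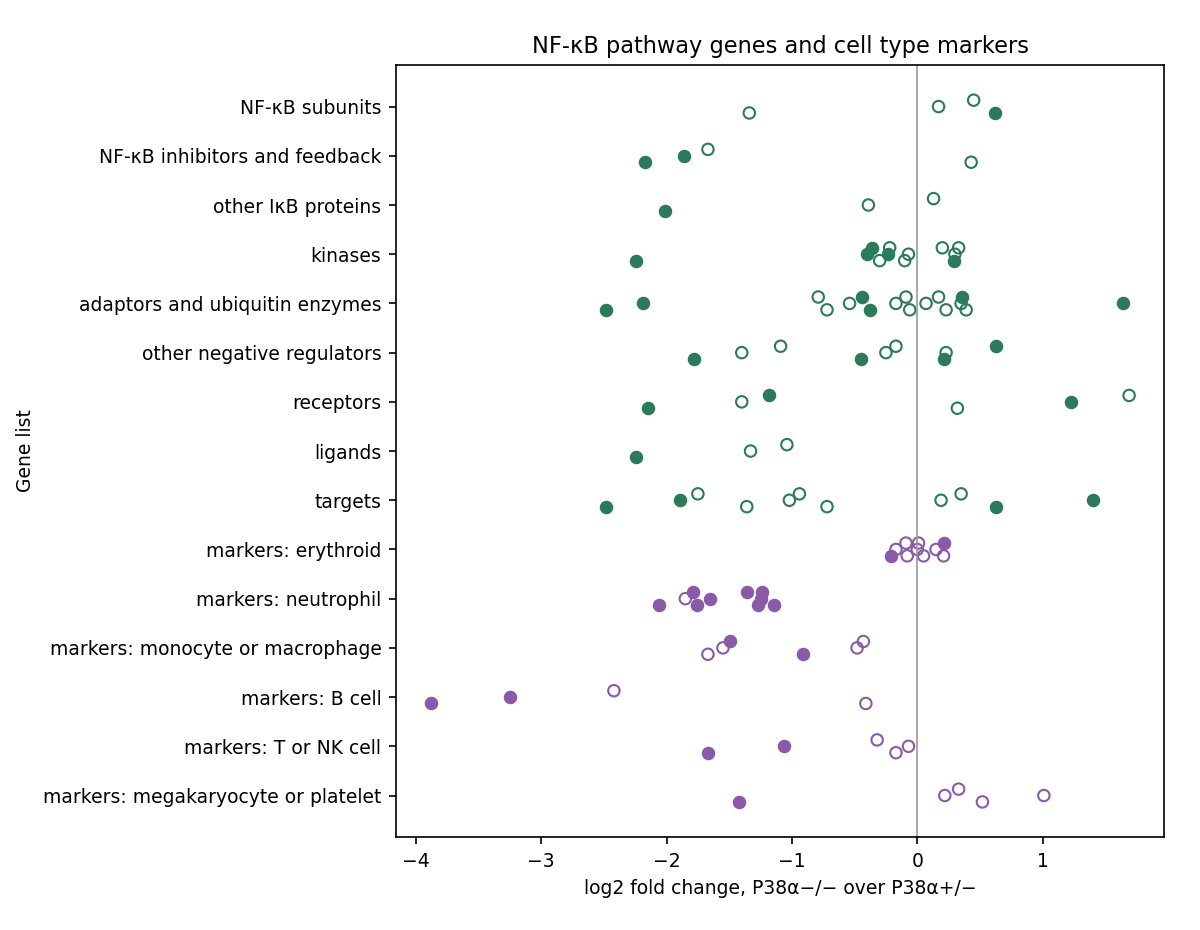
Log2 fold change of each tested gene of the NF-κB pathway lists (green) and of cell type marker lists (purple). Filled circles mark genes whose P38α−/− arrays all lie on 1 side of the P38α+/− arrays, and NF-κB genes of the first 2 lists are not repeated among the targets. The neutrophil markers all lie below 0, and the erythroid markers lie close to 0.

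Markers of other blood cells were read beside these genes. The 10 erythroid markers, Klf1 and Tfrc among them, were detected on all arrays and their summed signal, in units of each array's 75th percentile, was 287 to 343 in P38α+/− and 270 to 354 in P38α−/−. The 10 neutrophil markers were all detected as well, with sums of 105 to 274 in P38α+/− and 55.7 to 80.1 in P38α−/−. Without adjustment all 10 were lower (median log2 fold change -1.50), where 15.1% of all tested genes were, and no erythroid marker was. Sums over 10 monocyte or macrophage markers ran from 2.77 to 9.06 and from 1.56 to 2.65. Those over 9 B cell markers ran from 0.224 to 1.59 and from 0.169 to 0.349, and those over 9 T or NK cell markers from 1.23 to 3.18 and from 1.00 to 1.16. A sum is weighted to its brightest marker, which was Ly6c2 on every array for monocytes or macrophages. There Ly6c2 differed by -1.49, and Cd68 and C1qa by -0.43 and -0.48. Among T or NK cell markers Nkg7 and Gzma differed by -1.67 and -1.06, and Cd3e, Cd4 and Lck by -0.32, -0.17 and -0.07. The sums of 6 megakaryocyte or platelet markers overlapped (2.15 to 2.97 and 2.56 to 3.44). Of the tested markers, 2 of 6 for monocytes or macrophages and 2 of 4 for B cells were lower without adjustment. For T or NK cells 2 of 5 were lower, and for megakaryocytes or platelets 1 of 5. No defining marker of any of these cell types was at background on all arrays, and no marker was called. In sorted bulk samples fewer cells of a type and less RNA per cell cannot be told apart, and the part of these cells in the values of Nfkbiz, Bcl3, Nfkbie, Nfkb1 and Nfkbid was not tested.

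The genes whose pattern over the 6 arrays was most like that of Bcl3, by the root mean square difference of centred log2 values among 11974 candidates, were Irf5 (0.11), Zc3h6 (0.18), Pdlim2 (0.21), Dgka (0.26) and Ffar2 (0.26). Irf5 read -2.98, -3.75 and -5.18 in P38α+/− and -5.19, -5.71 and -6.17 in P38α−/−. In both genes the brightest array was P38α+/− replicate 1, and P38α+/− replicate 3 lay close to P38α−/− replicate 1. The 6 arrays of each profile are the same arrays, so the likeness is a description.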

How the data were processed

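Per the deposited records, each array was scanned in 1 colour (Cy3, 10 ng RNA amplified) and extracted with Agilent Feature Extraction 10.7.3.1, with probe positions on mm9. The deposited intensity used is the background-corrected processed signal. A table holding the authors' own normalized signal (column medians 8.481 to 8.496), made in an unstated way, served only as an alternative. Outlier-flagged spots were removed, spots of a probe averaged, and each array centred on its 75th percentile as described. No spot of a probe was saturated. limma 3.58.1 (R 4.3.3) compared 3 arrays with 3, unpaired as in the methods, with Benjamini-Hochberg adjustment over 18769 probes. The fit was tested on simulated data. A gene stood by its brightest tested probe. Old gene names were updated through RefSeq accessions (27503 of 55681 probes), current symbols or synonyms. Arrays were paired by the replicate number in their titles, which do not say which mice form a pair. The design speaks of pairs, and the deviations of same-numbered arrays correlated at 0.538, 0.312 and 0.423. Those of differently numbered arrays correlated at -0.476 to 0.183. Deviations from a genotype mean sum to 0, so these correlations are not independent of each other. What these correlations reflect was not tested. The number of arrays limits the precision.

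The 10 genes, the pathway and marker lists and the tests were chosen with earlier results of these data known. Named besides the 10 were the 3 tested genes of each list with the widest difference, plus Tnf, Il1b, Chuk, Ikbkb, Ikbkg, Map3k14 and Nfkbib. A gene that this rule names is not reported here. Alternatives covered scaling, background, filter, block, weights, the methods' t-test and leaving out each array.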

Additional observations from a re-analysis of the deposited data

How the results depend on the processing

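No NF-κB gene was called in 15 of the 17 alternatives of that count; taking the 75th percentile over all probes called 2 (Nfkbiz and Bcl3, log2 fold changes -1.69 and -1.37) and array weights called 1 (Nfkbiz, -2.13). Over the 84 further pathway genes these settings called 12 and 5, and testing only probes detected on all 6 arrays called 2. The count over all genes, 27 (77.8% higher), was 736 (55.4% higher) with the percentile over all probes, 15 (93.3%) with quantile normalization, 8 (25%) centred on the E1A spike-in spots, 12 (100%) with normexp, 11 (100%) with the authors' table, 76 (71.1%) with probes detected on all 6 arrays, 483 (31.3%) with array weights, 2 with the methods' t-test (906 before adjustment, Nfkbiz among them) and 0 without a filter or with the slide as a block. With the replicate block it was 63 (23.8% higher), and the pairing changed no call of an NF-κB or pathway gene. Leaving out 1 array gave 0 to 100 genes (100 without P38α+/− replicate 3, 20 without replicate 1, and 0 without any other array), 0 NF-κB genes and 0 to 1 pathway genes. The median over the tested NF-κB genes turned from -0.58 to 0.43 with probes detected on all 6 arrays, and from -0.43 to 0.53 relative to the median probe, since that filter leaves out Nfkb1, Nfkbie and Nfkbiz. Relb turned to -0.02 with the slide as a block and -0.18 over the mean of its tested probes, and ran from -0.33 to 0.61 leaving out 1 array (-0.33 without P38α+/− replicate 3, -0.02 without P38α−/− replicate 3). Rel moved to -0.25 with normexp. Tnfaip3 ran from -1.43 to 0.76. Of 176 alternatives over single NF-κB genes, 8 had the other sign (4 of Relb and 4 of Tnfaip3) and 3 passed the threshold. In the authors' table the P38α−/− replicate 2 column ranked the probes differently from its scanner signal (Spearman 0.8975 over all probes, at least 0.9999 on the other arrays); the cause was not tested. Signal near background limits Rel, Tnfaip3 and the P38α−/− values of Nfkbie and Nfkbiz.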
